A study of Homo sapiens with 6 samples.

Results

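Box C/D small nucleolar RNAs (snoRNAs) were examined across 6 KYSE150 clones. KYSE150 is a long-established cell line from a human squamous carcinoma of the oesophagus. The members were the genes whose RefSeq symbol begins with SNORD, leaving out host genes and the SNORD112 to SNORD116 names of the imprinted clusters on chromosomes 14 and 15. Of 284 SNORD genes in a table of 40448 gene IDs, 167 met this rule, and 144 of these were listed above 0 in at least 1 library. Of the 144, 138 were above 0 in all 6 libraries, 4 in 5 libraries, 1 in 4 and 1 in 3. The other 23 were listed at 0 in every library. The name rule did not remove the whole chromosome 15 cluster: SNORD64, SNORD107, SNORD109A and SNORD109B lie inside SNHG14, the transcript that also carries SNORD115 and SNORD116, in the GENCODE annotation, and are described separately.

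The study asked how the transcriptome of KYSE150 differs when NCCRP1 is expressed. The 3 mock clones (clones 1, 4 and 5) carried the pIRES2-EGFP vector alone, and the 3 NCCRP1 clones (clones 1, 6 and 17) carried a stable NCCRP1 transgene. Total RNA of every clone was depleted of ribosomal RNA and made into 1 library with an Ion Torrent kit, and a p-value therefore reflects the spread among 3 single-clone libraries a group. Going by a number in the names of the deposited data, run 15 held mock clones 1 and 4 with NCCRP1 clone 1. Run 14 held mock clone 5 with NCCRP1 clones 6 and 17. The sample labels do not state a sequencing run, so this grouping is an inference.

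Box C/D snoRNAs are short nucleolar RNAs with a box C motif near one end and a box D motif near the other. Bound by the proteins FBL, NOP56, NOP58 and SNU13, most of them pair with ribosomal RNA or spliceosomal RNA and direct methylation of the ribose at a matching position, whereas a few take part in cutting the ribosomal RNA precursor. In human cells nearly all are cut out of the introns of host genes, many of which encode ribosomal proteins or translation factors, or are long non-coding RNAs such as GAS5 and the SNHG genes.

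The sequences of the members on which the results turn are printed from GENCODE v29 (GRCh38), 5′ to 3′ on the RNA strand with T for U. Capitals mark a TGATGA (box C) within the first 25 bases, or the first GATG where that hexamer was not found, and the last CTGA (box D). The GATG of SNORD58B was marked by this search alone and may not be its box C. First come 3 members that were low in a single clone, with the other copies of SNORD58.
SNORD58B: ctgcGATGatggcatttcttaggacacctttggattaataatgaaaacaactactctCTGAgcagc
SNORD58A: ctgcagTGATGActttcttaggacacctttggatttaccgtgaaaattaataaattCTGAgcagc
SNORD58C: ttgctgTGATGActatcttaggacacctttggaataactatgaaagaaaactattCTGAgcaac
SNORD125: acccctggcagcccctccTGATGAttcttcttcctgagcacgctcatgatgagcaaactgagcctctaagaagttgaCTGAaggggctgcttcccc
SNORD11: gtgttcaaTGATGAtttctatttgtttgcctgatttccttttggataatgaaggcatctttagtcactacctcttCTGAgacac

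The next are a near-identical pair on different chromosomes and an unlike pair from the same host. The former is SNORD96A, the most abundant member, with its copy SNORD96B, and the latter SNORD100 and SNORD101.
SNORD96A: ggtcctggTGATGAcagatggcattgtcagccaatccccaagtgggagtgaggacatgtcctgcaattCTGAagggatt
SNORD96B: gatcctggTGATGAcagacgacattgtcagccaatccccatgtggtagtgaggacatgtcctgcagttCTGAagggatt
SNORD100: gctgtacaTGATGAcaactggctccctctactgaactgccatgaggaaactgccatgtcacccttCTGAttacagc
SNORD101: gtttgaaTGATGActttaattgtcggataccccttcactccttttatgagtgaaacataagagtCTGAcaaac

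The last 3 are the member with the lowest p among those with a higher mean in NCCRP1 clones (SNORD37) and the pair whose groups did not overlap in the other direction (SNORD64 and SNORD107).
SNORD37: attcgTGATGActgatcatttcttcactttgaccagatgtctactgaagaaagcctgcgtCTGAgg
SNORD64: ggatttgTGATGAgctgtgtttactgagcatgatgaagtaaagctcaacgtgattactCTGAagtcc
SNORD107: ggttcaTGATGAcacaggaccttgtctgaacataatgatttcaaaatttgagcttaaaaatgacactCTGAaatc

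A sequence was found in GENCODE for 125 of the 144 members. TGATGA stood within the first 25 bases of 80 of these (64%) and CTGA within the last 25 bases of 122 (97.6%), searched on the RNA strand alone. Among 165 box H/ACA snoRNAs and small Cajal body RNAs, which guide pseudouridylation or modify spliceosomal RNA, 3.64% held the first motif and 15.8% the second. Among 1879 microRNA hairpins the shares were 0.585% and 12.7%. SNORD96A and SNORD96B were 92.4% identical, SNORD88A and SNORD88B 91.2%, SNORD62A and SNORD62B 100%, and SNORD109A and SNORD109B 100%, so the counting could have split reads between the copies and their separate values are uncertain. SNORD100 and SNORD101 shared 50% of their bases, and the SNORD58 copies 78.5% to 78.8%.

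All values are log2 RPKM as deposited, where RPKM is reads scaled to gene length and library size, and 0 stands for a gene under 1 RPKM or without an estimate. Libraries rested on about 12290000 to 18060000 reads, estimated from whole-read steps in microRNA genes, and correlated with each other over the 138 members above 0 everywhere with r between 0.962 and 0.991. The transfected gene, NCCRP1, was at 0 in all 3 mock libraries and at 6.19, 8.07 and 6.71 in NCCRP1 clones 1, 6 and 17, as labelled. The 6 squamous markers were above 0 in every library, with KRT5 between 9.54 and 10.86 and TP63 between 3.94 and 4.97. KRT14 ranged from 2.0 to 4.22 in mock and from 1.11 to 2.23 in NCCRP1 clones (difference -1.57, limma adjusted p = 0.631), and KRT6A differed by -0.61 (adjusted p = 0.688). The simple epithelial markers KRT8 (7.64 to 8.31) and KRT18 (7.53 to 8.52) were also above 0 in every library. Both were higher in every NCCRP1 clone than in every mock clone, as were 5.71% of all genes tested. Their differences were 0.40 and 0.68 (limma adjusted p = 0.662 and 0.341). The leukocyte markers PTPRC, CD3E and CD14 and the fibroblast markers COL1A2, DCN and LUM were listed at 0 throughout, but COL1A1 (1.32 to 2.57) and the melanocyte marker PMEL (1.70 to 2.36) were above 0 in every library. The other melanocyte marker, MLANA, was at 0.09 in mock clone 4 and at 0 elsewhere. Of the endothelial markers, PECAM1 was at 0 throughout, and CDH5 was at 0.66 in NCCRP1 clone 6 and at 0 elsewhere. The part of any of these markers in the results below was not tested.

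Box C/D snoRNAs were among the most abundant RNAs of these libraries. The 138 members had annotated lengths of 48 to 237 nucleotides (median 76) and mean levels from 1.74 to 16.01, with a median of 10.86. Together the 144 members took an estimated 3.85%, 5.22% and 6.09% of the reads in mock clones 1, 4 and 5. Their share in NCCRP1 clones 1, 6 and 17 was 6.59%, 4.75% and 5.71%. The groups overlapped in this share, with mock clone 1 the lowest library and NCCRP1 clone 1 the highest.

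A few members held much of this. SNORD96A, which guides methylation of 5.8S ribosomal RNA and lies inside RACK1 on chromosome 5, stood at 15.64, 16.11 and 15.83 in mock clones 1, 4 and 5 and at 16.63, 15.86 and 16.00 in NCCRP1 clones 1, 6 and 17. It made up 9.08% of the members' reads. Its near-identical copy SNORD96B on chromosome X lay between 4.06 and 5.55. SNORD104, a guide for large subunit ribosomal RNA on chromosome 17, stood at 15.53, 15.88 and 15.71 in mock clones and at 16.35, 15.52 and 15.31 in NCCRP1 clones, and made up 8.25%. SNORD35B, on chromosome 19, stood at 14.70, 15.21 and 15.02 in mock clones and at 15.77, 14.82 and 14.82 in NCCRP1 clones, and made up 5.78%. In all of these 3 the groups overlapped and NCCRP1 clone 1 was the highest library.

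The next most abundant members were SNORD83B (mean 14.43), SNORD26 (14.19), SNORD95 (14.19), SNORD99 (14.16), SNORD100 (14), SNORD34 (13.96) and SNORD8 (13.84). SNORD26, SNORD34, SNORD95 and SNORD99 are known guides for large subunit ribosomal RNA, and SNORD100 for small subunit ribosomal RNA. Groups did not overlap in 2 of the 10 most abundant members, against 12.8% of all genes tested (5.71% higher in NCCRP1 clones and 7.05% lower). For mock clones 1, 4 and 5, SNORD95 stood at 13.51, 14 and 14.26, and for NCCRP1 clones 1, 6 and 17 at 14.47, 14.38 and 14.50. SNORD99 stood at 13.56, 14.16 and 14.07 in mock clones, against 14.50, 14.31 and 14.37. Every NCCRP1 clone thus lay above every mock clone. Their log2 differences were 0.53 (SE 0.36) and 0.46 (SE 0.35), and neither passed limma's test (adjusted p = 0.848 and 0.875).

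The members known to be transcribed from promoters of their own were listed at 0 in 6 of 6 libraries. These were the U3 genes SNORD3A, SNORD3B-1, SNORD3B-2, SNORD3C and SNORD3D, SNORD118 (the U8 RNA of large subunit processing) and SNORD13. Also at 0 were genes related to them by name, SNORD3P1, SNORD3P3, SNORD3P4, SNORD13P2 and SNORD13P3, of which RefSeq lists all but SNORD3P3 as pseudogenes. TPT1, a gene used by all cells, was also listed at 0 in every library, so these zeros say nothing of whether the RNAs were made. The remaining 11 members at 0 were SNORD14A to SNORD14E, SNORD73A, SNORD73B, SNORD86, SNORD108, SNORD123 and SNORD56B.

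Members of 1 host gene differed widely in level. GAS5, a non-coding host on chromosome 1 with a mean of 5.81, held 10 members from SNORD77 (mean 6.45) to SNORD47 (12.87), an 85.1-fold range in RPKM. The 8 members of SNHG1 on chromosome 11 (host mean 5.84) ran from SNORD29 (10.11) to SNORD26 (14.19), a 16.9-fold range. The 4 members of RPL13A ran from 12.66 to 13.96, a 2.47-fold range. In RPL3, which encodes a ribosomal protein, 4 members spanned 849-fold, from SNORD139 (4.70) to SNORD83B (14.43). RPS12 held SNORD100 at 14 and SNORD101, which matches it at 50% of bases, at 3.78. These pairs kept their order in every clone: SNORD101 lay between 2.99 and 4.68 and SNORD100 between 13.37 and 14.57, and SNORD139 lay between 4.04 and 5.46 and SNORD83B between 13.83 and 15.04.

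**Figure D1:**
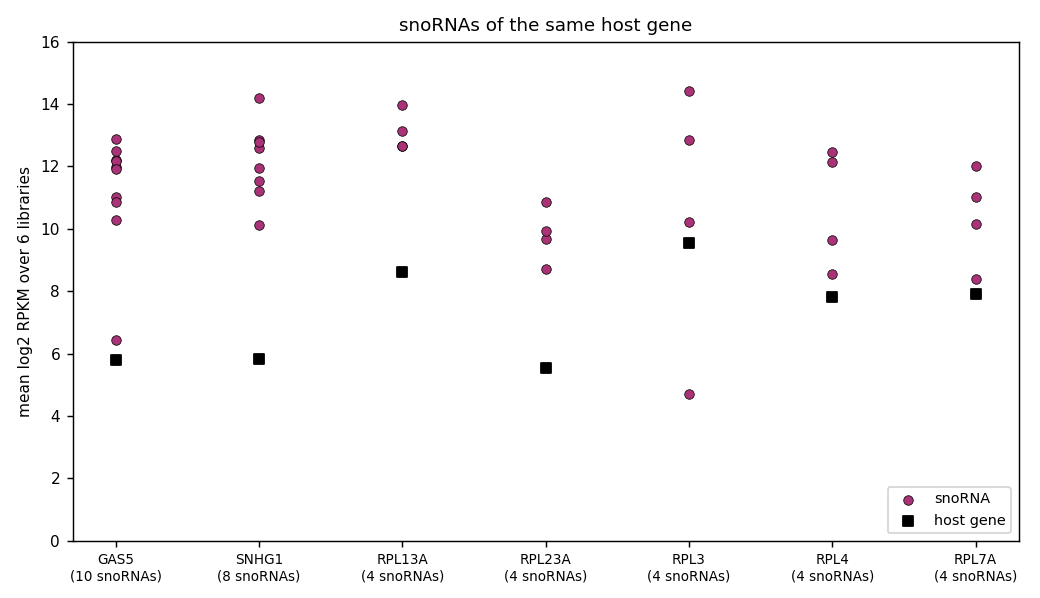
Mean log2 RPKM over 6 libraries for the members of 7 host genes with at least 4 members above 0 (circles) and for the host gene itself (squares). SNORD139 at 4.70 is the only member plotted below its host (RPL3, 9.53).

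The snoRNAs mostly stood far above the genes that contain them. Among 129 pairs of a member and a host, all above 0 in every library, the snoRNA was higher per length than its host in 124, by a median log2 of 4.42 (21.4-fold), and the difference ranged from -4.83 for SNORD139 in RPL3 to 9.99 for SNORD89 in RNF149. Across the pairs, which share libraries and often a host (63 hosts), the level of the snoRNA and that of the host had Pearson's r of 0.33 and Spearman's rho of 0.32. The NCCRP1-minus-mock differences of snoRNA and host had r of 0.20 and rho of 0.15, and had the same sign in 78 of 129 pairs. Both are descriptions across genes, which are not independent replicates.

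One library stood apart for the class as a whole. Each member's deviation from its own mean over the 6 libraries had a median over the 138 members of -0.58 in mock clone 1, -0.02 in mock clone 4 and 0.30 in mock clone 5. In NCCRP1 clones 1, 6 and 17 it was 0.24, -0.16 and 0.26. Mock clone 1 was the lowest library for 109 of the 138 members (79%), against 21.4% of the 11927 genes above 0 in every library, 36.3% of 102 H/ACA snoRNAs and small Cajal body RNAs and 24.4% of 123 microRNA genes. For the H/ACA snoRNAs and small Cajal body RNAs together, called H/ACA RNAs below, the median deviation in mock clone 1 was -0.22. This set was taken by symbol, and its small Cajal body RNAs were not sorted by box type. For all genes the library medians lay between -0.03 and 0.05. The members' deviation in mock clone 1 went with GC content (Spearman's rho 0.39 over 119 members with a sequence) and with length (rho 0.28 over 138). In the other libraries these rhos lay between -0.24 and 0.10 for GC content and between -0.20 and 0.04 for length. The part of GC content and length in the low values of mock clone 1 was not tested. In bulk RNA, fewer cells that make an RNA and less of it per cell cannot be told apart.

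**Figure D2:**
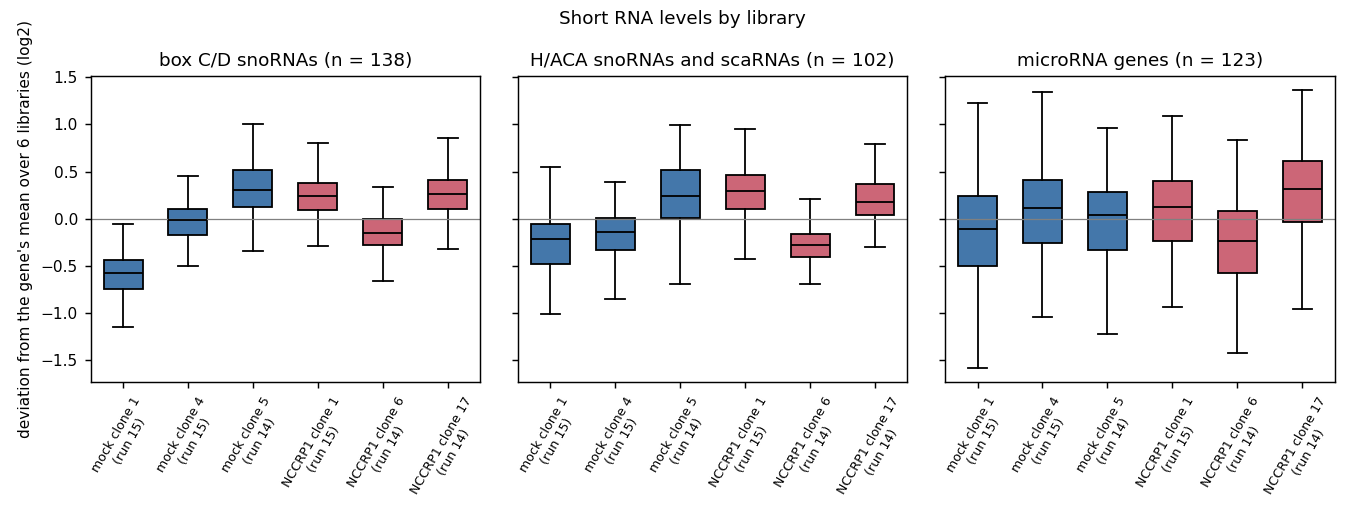
Deviation of each gene from its mean over 6 libraries (log2) by library, for box C/D snoRNAs (n = 138), H/ACA snoRNAs and small Cajal body RNAs (n = 102) and microRNA genes (n = 123). Boxes show quartiles and medians, and whiskers the range without outlying genes, which are not drawn; the box C/D median is lowest in mock clone 1 at -0.58.

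No box C/D snoRNA passed the test between NCCRP1 and mock clones. With limma on the log2 values, adjusted by Benjamini-Hochberg over all 12737 genes tested, 0 of 144 members and 13 of all genes (0.102%) had an adjusted p under 0.05. At an unadjusted p under 0.05 there were 7 members (4.86%), against 7.33% of all genes. All 144 members were listed above 0 in at least 3 libraries and so were tested. Groups did not overlap for 12 members (8.33%), 10 of them higher in NCCRP1 clones and 2 lower, against 12.8% of all genes (5.71% higher and 7.05% lower).

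The direction of the members turned when mock clone 1 was left out. The mean was higher in NCCRP1 clones for 120 of 144 members (83.3%, against 46.7% of all genes), with a median log2 difference of 0.18 against -0.02 over all genes tested, 0.11 over H/ACA RNAs and 0.03 over microRNA genes. Without mock clone 1 the mean was higher for 55 of 144 and the median was -0.053, near the -0.034 over all genes tested. Within run 15, which held mock clone 1, the median difference of the 138 members was 0.57 and 130 were higher in the NCCRP1 clone. Within run 14 the median was -0.28 and 29 were higher. H/ACA RNAs had the same split, 0.52 and -0.30. Over the 11927 genes above 0 in every library the median was -0.01 within run 15 and -0.04 within run 14. Of these genes 48.5% and 44.3% were higher. With quantile normalization 94 of 144 members were higher and 50 lower, with a run term 103 and 41, and with small RNAs centred on the H/ACA RNAs 100 and 44.

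**Figure D3:**
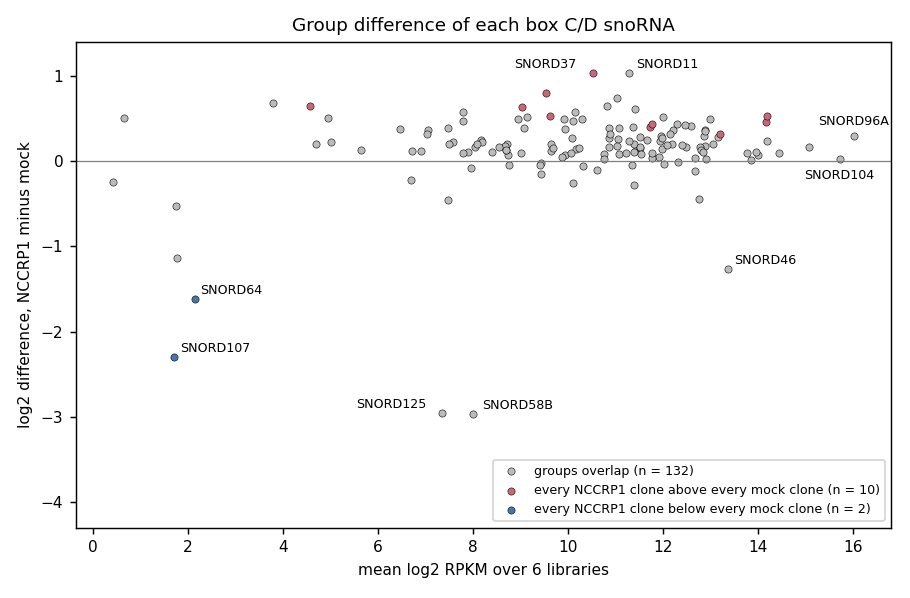
Log2 difference, NCCRP1 minus mock, against mean log2 RPKM for the 144 members. Red points have every NCCRP1 clone above every mock clone (n = 10), blue points every NCCRP1 clone below (n = 2); in SNORD46, SNORD58B and SNORD125 only NCCRP1 clone 1 was low.

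Among members with a higher mean in NCCRP1 clones, SNORD37 had the lowest p. SNORD37, a guide for large subunit ribosomal RNA inside EEF2 on chromosome 19, stood at 9.31, 9.92 and 10.81 in mock clones 1, 4 and 5 and at 10.88, 11.14 and 11.11 in NCCRP1 clones 1, 6 and 17. The groups did not overlap, but mock clone 5 lay close to NCCRP1 clone 1. The difference was 1.03 (SE 0.35, 2.04-fold), with limma's adjusted p = 0.466, and the exact permutation test gave p = 0.1 two-sided, the smallest that 3 against 3 allows. Its host EEF2, the translation elongation factor, stood at 9.90, 9.75 and 9.46 against 10.65, 10.28 and 10.39, a difference of 0.73 (SE 0.23, limma adjusted p = 0.415). Within run 15 SNORD37 differed by 1.26 and within run 14 by 0.31, and without mock clone 1 the group difference was 0.68.

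The other 5 members of this kind with the lowest p also failed limma's test. SNORD50A, a large subunit guide inside SNHG5, stood at 8.40, 9.44 and 9.52 in mock clones and 10.32, 9.53 and 9.93 in NCCRP1 clones (difference 0.80, SE 0.32, adjusted p = 0.592). SNORD1A, a large subunit guide inside SNHG16, stood at 4.12, 4.39 and 4.22 against 5.57, 4.45 and 4.66 (difference 0.65, SE 0.26, adjusted p = 0.59). SNORD127, inside PRPF39, stood at 8.11, 8.79 and 9.20 against 9.37, 9.36 and 9.29 (difference 0.64, SE 0.26, adjusted p = 0.617). In these 3 the groups did not overlap, and mock clone 1 was the lowest library.

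SNORD58C, inside RPL17, stood at 9.00, 9.58 and 9.48 in mock clones and 9.94, 9.74 and 9.97 in NCCRP1 clones (difference 0.53, SE 0.23, limma adjusted p = 0.639), with no overlap. SNORD1C, inside SNHG16, stood at 7.25, 7.42 and 7.99 against 7.99, 7.85 and 8.21 (difference 0.47, SE 0.21, adjusted p = 0.683), and its groups overlapped. Of the hosts, SNHG5 differed by -0.22, SNHG16 by 0.01 and PRPF39 by 0.03, whereas RPL17 differed by 0.50 (SE 0.22, limma adjusted p = 0.664), close to SNORD58C. The groups of RPL17 overlapped, however, and it was highest in NCCRP1 clone 1 (7.20, elsewhere 5.99 to 6.57), unlike SNORD58C. Without mock clone 1 the difference was 0.44 for SNORD50A, 0.35 for both SNORD127 and SNORD58C, and 0.31 for SNORD1C. Without NCCRP1 clone 1 it was 0.31 for SNORD1A. With small RNAs centred on the box C/D snoRNAs it was 0.43 for SNORD1A, 0.32 for SNORD58C and 0.25 for SNORD1C.

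Among members with a lower mean in NCCRP1 clones, the 4 inside SNHG14, a long transcript of the imprinted Prader-Willi region on chromosome 15, had the lowest p. SNORD107 stood at 2.12, 2.96 and 3.49 in mock clones 1, 4 and 5 and at 0, 1.67 and 0 in NCCRP1 clones 1, 6 and 17. The 3 mock values lay above all 3 NCCRP1 values, but they rest on an estimated 4, 7 and 13 reads against 0, 4 and 0. The difference was -2.30 (SE 0.51), with limma's adjusted p = 0.26 and an exact permutation p = 0.1; no fold is given because 2 libraries were listed at 0. Without NCCRP1 clone 6 the difference was -2.86 with limma's adjusted p = 0.039, and over all settings tried its adjusted p ranged from 0.039 to 0.518, and the difference was -4.52 on the log2(RPKM + 0.1) scale.

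SNORD64 stood at 2.09, 3.04 and 3.71 in mock clones and at 2.05, 1.91 and 0.03 in NCCRP1 clones, again without overlap (difference -1.62, SE 0.64, limma adjusted p = 0.648), although mock clone 1 and NCCRP1 clone 1 lay next to each other. These values rest on an estimated 3, 7 and 14 reads in mock clones against 5, 4 and 1 in NCCRP1 clones. SNORD109A (1.86, 1.57 and 3.58 against 1.24, 0 and 2.36) and its identical copy SNORD109B (1.28, 1.82 and 2.90 against 1.31, 1.50 and 1.62) overlapped between the groups, with differences of -1.14 and -0.53 and limma adjusted p of 0.864 and 0.846. Mock clone 5 was the highest library for all 4. Without it the difference was -0.52 for SNORD109A and -0.07 for SNORD109B. For SNORD109A it was -0.54 without NCCRP1 clone 6 or with a listed 0 as missing, -1.72 without NCCRP1 clone 17 and -2.25 on the log2(RPKM + 0.1) scale, and for SNORD109B -0.89 without mock clone 1. For SNORD64 it was -0.97 without NCCRP1 clone 17. SNRPN, a gene upstream in the same imprinted region, stood at 2.81, 2.67 and 2.86 in mock clones and at 2.17, 2.68 and 0.05 in NCCRP1 clones 1, 6 and 17, and SNURF at 3.30, 3.15 and 3.34 against 2.65, 3.16 and 0.48. NCCRP1 clone 17 was therefore low for SNORD64, SNRPN and SNURF, and was listed at 0 for SNORD107, as was NCCRP1 clone 1. SNORD109A and SNORD109B were not low in NCCRP1 clone 17, but rest on an estimated 5 and 3 reads there. In the other libraries SNORD109A rests on an estimated 0 to 13 reads and SNORD109B on 2 to 8, so this contrast is uncertain. The part of NCCRP1 clone 17's low SNRPN and SNURF in these differences was not tested.

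**Figure D4:**
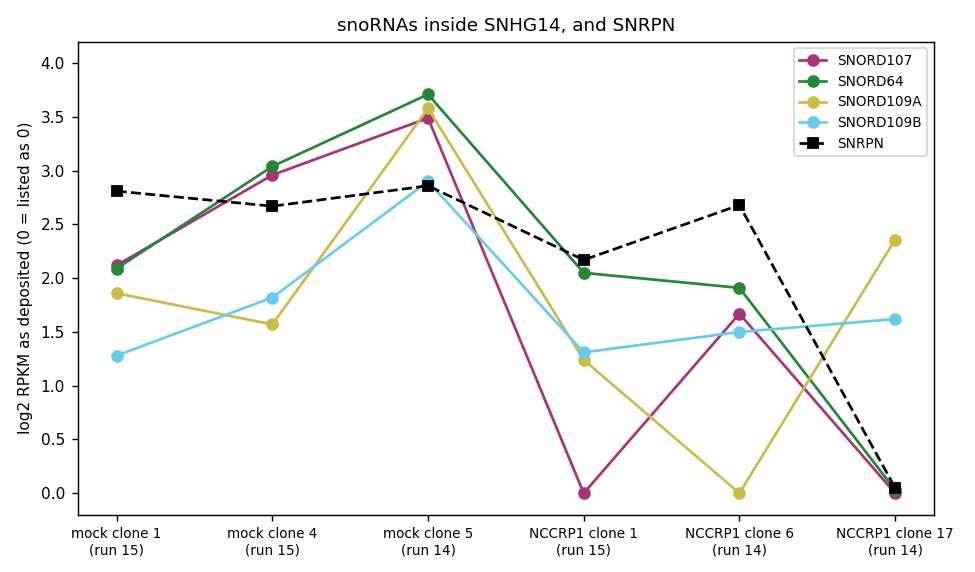
Log2 RPKM as deposited for the 4 members inside SNHG14 and for SNRPN (dashed) in each library. NCCRP1 clone 17 lies at 0.05 or lower for SNRPN, SNORD64 and SNORD107, while SNORD109A and SNORD109B there are 2.36 and 1.62, on an estimated 5 and 3 reads. SNORD107 is also at 0 in NCCRP1 clone 1.

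A further 2 members with lower means came from C19orf48P on chromosome 19. SNORD88C stood at 12.64, 12.95 and 13.32 in mock clones and at 12.74, 12.17 and 12.67 in NCCRP1 clones (difference -0.44, SE 0.32, limma adjusted p = 0.875). SNORD88B stood at 7.03, 6.53 and 6.83 against 6.81, 6.20 and 6.72 (difference -0.22, SE 0.20, adjusted p = 0.912). The groups overlapped for both. Without mock clone 5 or without NCCRP1 clone 6 the difference of SNORD88C was -0.26. That of SNORD88B ranged from -0.36 without mock clone 4 to -0.03 without NCCRP1 clone 6, and was -0.44 with small RNAs centred on the box C/D snoRNAs. SNORD88B is 91.2% identical to SNORD88A (mean 12.30) and 87.9% identical to SNORD88C, so its mean of 6.69, 66.8-fold below SNORD88C, is uncertain.

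Some members departed from the rest in a single clone. A library was counted as dropped for a gene when it lay at least 2 log2 below the median of the other 5 and these were above 4, a threshold set after the values had been seen. In NCCRP1 clone 1 this held for 3 of 136 members and for 5 of 4277 genes (0.117%), in mock clone 5 for 1 of 134 members and 2 of 4297 genes (0.0465%), and in NCCRP1 clone 17 for no member and 7 of 4266 genes (0.164%). In mock clones 1 and 4 and in NCCRP1 clone 6 no gene met it. The 7 genes of NCCRP1 clone 17 were KRT17 and 6 SNORD116 copies. The rule looks at 1 library at a time, so it cannot weigh a clone against a group. Its floor of 4 also leaves out members near 0, such as SNORD107 and SNORD64.

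Of the members above 0 in every library, SNORD46 had the largest drop. It is a guide for large subunit ribosomal RNA and stood at 13.41, 13.94 and 14.67 in mock clones 1, 4 and 5, at 9.78 in NCCRP1 clone 1, and at 14.17 and 14.27 in NCCRP1 clones 6 and 17. NCCRP1 clone 1 was thus 21-fold below the median of the other 5, with an estimated 1551 reads there.

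SNORD58B, of the SNORD58 family of large subunit guides inside RPL17 on chromosome 18, stood at 9.10, 9.47 and 9.86 in mock clones and at 9.59 and 9.94 in NCCRP1 clones 6 and 17, and was listed at 0 in NCCRP1 clone 1. SNORD125, inside AP1B1 on chromosome 22, stood at 8.35, 9.02 and 9.11 in mock clones and at 8.72 and 8.89 in NCCRP1 clones 6 and 17, and was also listed at 0 in NCCRP1 clone 1. Their neighbours were not low: RPL17 itself was highest in NCCRP1 clone 1 (7.20, against 5.99 to 6.57), SNORD58A was 10.81 there and SNORD58C 9.94, and AP1B1 was 5.95 (elsewhere 5.63 to 5.98). A listed 0 can be a missing estimate, so no fold is given. SNORD58B and SNORD125 fall outside the naming rule and were chosen after their values were seen. The other genes that met the drop rule in NCCRP1 clone 1 were SNORA57 (11.93, against 13.35 to 14.07) and the imprinted non-coding RNA H19. H19 stood at 7.38, 7.12 and 7.09 for mock clones and 3.19, 5.47 and 5.09 for NCCRP1 clones 1, 6 and 17, so all NCCRP1 clones lay below the mock clones (difference -2.62, limma adjusted p = 0.36).

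SNORD11, a guide for small subunit ribosomal RNA inside NOP58 on chromosome 2, departed in a mock clone instead. It stood at 11.03, 11.73 and 9.52 in mock clones 1, 4 and 5 and at 11.87, 11.71 and 11.80 in NCCRP1 clones, so mock clone 5 was 4.62-fold below the median of the others. NOP58, which encodes one of the core proteins of the particle, stood at 4.42, 4.37 and 4.74 in mock clones and 4.58, 4.52 and 4.26 in NCCRP1 clones. SNORD11B and SNORD70, also inside NOP58, were highest in mock clone 5, at 8.31 (elsewhere 6.96 to 7.91) and 7.68 (elsewhere 5.74 to 7.21).

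Other members lay farthest from the rest in 1 or more clones by smaller amounts. SNORD98, a small subunit guide inside CCAR1 on chromosome 10, stood at 7.49, 7.65 and 7.99 in mock clones and at 8.81, 6.81 and 6.12 in NCCRP1 clones 1, 6 and 17, so that the NCCRP1 clones lay on both sides of the mock clones. CCAR1 stood at 4.00, 4.11 and 4.39 against 3.83, 3.77 and 4.08. In mock clone 1 SNORD37 (-1.57) and SNORD12C of ZFAS1 (-1.36) were farthest below the median of the other 5 libraries. In mock clone 4 these were SNORD96B (-1.22) and SNORD101 (-1.04), and in NCCRP1 clone 6, after SNORD98, SNORD25 of SNHG1 (-0.78).

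Host genes and the proteins of the particle did not pass the test either. Of 68 host genes in the table, 64 were tested with limma and 0 passed; 6 had an unadjusted p below 0.05 (7.33% of all genes did), and the median difference was 0.01. Groups did not overlap for 8 hosts (12.5%, against 12.8% of all genes). The translation initiation factor gene EIF4A2, host of SNORD2, had the lowest p: it stood at 5.94, 5.88 and 6.12 in mock clones and at 6.51, 6.47 and 6.58 in NCCRP1 clones, a difference of 0.54 (SE 0.14, limma adjusted p = 0.278). SNORD2 itself stood at 10.55, 11.54 and 11.41 against 11.96, 11.05 and 11.70, and its groups overlapped. After EEF2 came TNPO2, host of SNORD41, at 6.76, 6.54 and 6.73 against 6.22, 6.38 and 6.41 (difference -0.34, adjusted p = 0.627), and RPL21, host of SNORD102, with a difference of 0.35 (adjusted p = 0.631).

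All 27 listed genes for proteins that make, bind or trim box C/D snoRNAs were tested with limma, and 0 passed. An unadjusted p under 0.05 was reached by 1 of them (3.7%), against 7.33% of all genes. Of the 27, 15 had a higher and 12 a lower mean in NCCRP1 clones, with differences from -0.18 to 0.48 and a median of 0.02. For the methyltransferase FBL the mock mean was 5.82 ± 0.39 and the NCCRP1 mean 6.03 ± 0.06 (SD, n = 3 each), NOP56 at 6.23 ± 0.08 and 6.22 ± 0.05, NOP58 at 4.51 ± 0.20 and 4.45 ± 0.17, and SNU13 at 5.89 ± 0.17 and 6.04 ± 0.26. That gene was the assembly factor NOPCHAP1, at 4.45, 4.42 and 4.21 in mock clones and at 5.09, 4.93 and 4.51 in NCCRP1 clones, a difference of 0.48 (SE 0.17, limma adjusted p = 0.513). It was also the 1 gene of the list without overlap between groups (3.7%, against 12.8% of all genes).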

How the data were processed

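Libraries were made from total RNA of 6 KYSE150 clones, depleted of ribosomal RNA. The header of each deposited file names RPKM per Entrez gene ID; the authors' deposited values are log2 RPKM, since powers of 2 times transcript length summed to 1083914 to 1102206 per library, and genes under 1 RPKM are listed as 0. The submitters' processing notes name hg19 and bedtools 2.25.0, with no role, and the aligner is not given in the sources used here. Symbols came from RefSeq (GRCh38.p14), matching 37997 of 40448 IDs. Hosts and sequences came from GENCODE v29 (GRCh38), or, for hosts not found there, from RefSeq gene spans without strand. No coordinates are given because builds differ.

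Genes above 0 in at least 3 of 6 libraries (12737) were fitted with limma 3.58.1 in R 4.3.3 (trended, robust, two-sided, group as the only term), with Benjamini-Hochberg adjustment over all of them and a threshold of 0.05. Permutation tests used scipy 1.17.1 in Python 3.11.15. Identity is the share of bases left unedited over the longer sequence. Depth is approximate: 24.1% to 33.8% of microRNA values under 8 reads lay within 0.005 of a whole step. In NCCRP1 clone 1 the next best depth reached 25 such values against 38. Of member values under 200 reads, 2 of 17 in NCCRP1 clone 6 and 5 of 14 in NCCRP1 clone 1 lay within 0.05 of a whole read. Read numbers beside members are therefore rough estimates.

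Members named were the 6 per direction with the lowest p, the 10 most abundant, those with their own promoters and their namesakes (the SNORD3A to SNORD3D U3 genes, SNORD13 and SNORD118), the 2 farthest members per library, and the members of the hosts with most members. For hosts and proteins, the core proteins and up to 4 others with the lowest p were named. Members and lists were chosen with earlier results of these data known. Some hosts and sequences are not reported here.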

Additional observations from a re-analysis of the deposited data

How the results depend on the processing

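Values rest on 3 clones a group with 1 library each, and the run, inferred from names alone, is partly confounded with group. No paired analysis was possible because the groups share only 1 clone number, which names unrelated clones. The count of box C/D snoRNAs passing limma's test was 0 under every other setting and 0 to 1 with 1 clone left out; the 1 was SNORD107 (-2.86, adjusted p = 0.039) without NCCRP1 clone 6. The median log2 difference over the tested members was 0.181, and with 1 clone left out it ranged from -0.053 (without mock clone 1) to 0.39 (without mock clone 5). It was -0.033 where small RNAs were centred on the box C/D snoRNAs themselves, which removes a shared shift by construction. Other settings gave 0.078 (small RNAs centred on H/ACA RNAs) to 0.195 (libraries centred on their median). Host and protein genes passing stayed at 0 in every setting run. Of 201 alternative values for the 12 members named by p (the 6 lowest in each direction), 200 kept their direction and side of the threshold, and the exception was SNORD107. Fitting genes listed at 0 everywhere could not be done, so the unfiltered fit required a value above 0 in 1 library. Settings added after seeing the data were a listed 0 as missing, centring on the box C/D snoRNAs, and leaving out the 4 SNHG14 members or SNORD46, SNORD58B and SNORD125. SNORD107 and the other SNHG14 members rest on few reads, and counts of reads could not be recovered.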
